A study of Mus musculus with 16 samples.

Results

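Interferon-stimulated antiviral genes are genes that cells switch on after type I or type III interferon binds its receptor. The 46 genes described here were taken by symbol from a fixed list, and all 46 were found among the 24421 genes of the deposited counts. All 46 passed the filter on low counts, as did 9642 genes in all. The counts came from bulk RNA-seq of CD11b+ cells, gated as live CD45+ leukocytes that carried Kaede and CD11b and lacked TER119 and NK1.1, from subcutaneous MC38-Ova tumours, a colon adenocarcinoma line that carries ovalbumin. The hosts were adult C57BL/6 mice that carried a transgene for Kaede, a fluorescent protein that violet light turns permanently from green to red, and all were untreated controls. Host cells in the tumour were photoconverted in each mouse, so Kaede-green cells had entered since and Kaede-red cells had been in the tumour since that time point. Tumours were taken 24h or 72h later, which gave 4 groups of 4 libraries: Kaede-green 24h, Kaede-red 24h, Kaede-green 72h and Kaede-red 72h. All 16 libraries carry the same batch label. The labels number the replicates and name no animals. In the study's description the points of its bulk RNA-seq plot are tumours of independent mice. Whether a Kaede-green and a Kaede-red library came from the same mouse is not given in the sources used here. CD11b marks several myeloid cell types, and the sort did not separate them.

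Interferon receptors signal through the kinases JAK1 and TYK2 to transcription factors that bind the interferon-stimulated response element (ISRE) near the genes described here. The products sense viral RNA, degrade it, block viral entry or assembly, or modify proteins and nucleotides. Monocytes and macrophages express many of these genes at a basal level and raise them after interferon or a viral ligand.

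Libraries held 3216858 to 15423085 counts, of which the ribosomal RNA precursor Rn45s took 55.8% to 93.4%. The Rn45s share was 86.5% to 93.4% in Kaede-green 24h, 66.2% to 84.9% in Kaede-red 24h, 79% to 91% in Kaede-green 72h and 55.8% to 73.8% in Kaede-red 72h. Members took 7343 to 171680 counts per library, so low members rest on fewer counts in Kaede-green libraries. Levels are CPM (counts scaled to a common library size) on library sizes scaled by the trimmed mean of M-values (TMM). Within Kaede-red 24h, replicates 3 and 4 stood apart. Their log2 ratio of Rn45s counts to all other counts was 2.30 and 2.49, against 0.97 and 1.10 in replicates 1 and 2. Only 6 and 7 of the 46 members lay above the group mean in replicates 3 and 4, against 39 and 42 in replicates 1 and 2. Results that rest on this group are given below also without both libraries, a choice made after seeing the data. The Oas1a, Ifit3, Ifit3b, Ifitm2, Herc6, Ifi204 and Rtp4 transcripts share the largest parts with other genes. Exons of Dhx58, Adar, Oasl1, Usp18, Slfn5, Ifi35 and Ifi47 overlap genes on the opposite strand, as do those of Parp9 and Dtx3l with each other. Ifi47, Parp14 and Sp100 also overlap genes on the same strand. Counts of all these members are less certain.

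The question addressed was how the antiviral programme differed between newly entered and resident CD11b+ cells, and between 24h and 72h after photoconversion. Tumours taken at 72h had also grown for longer, so time since photoconversion and tumour age cannot be told apart. Kaede-green cells could have entered at any time since photoconversion. The members did not move as a block. At 24h, Kaede-red cells were lower for 10 members and higher for 1, and at 72h they were higher for 11 and lower for 5 (edgeR quasi-likelihood test, Benjamini-Hochberg adjusted p below 0.05 over 9642 genes). At 24h, 7.5% of all genes tested passed, 3.22% higher and 4.28% lower, against 23.9% of members. At 72h, 16.8% of all genes passed, 8.06% higher and 8.76% lower, against 34.8% of members. Over both times, 5 members were higher and 11 lower, with 10% and 10.3% of all genes passing in those directions (20.3% either way), and the libraries of 5 members did not overlap between colours, against 2.94% of all genes. With the ratio of Rn45s counts to all other counts as a covariate, 3 members passed over both times, all lower, against 1.79% of all genes. The median log2 fold change of members was -0.34 at 24h and 0.16 at 72h, against 0.05 and 0.03 over all genes tested. Members lay below 0 in 40 of 46 cases at 24h and above 0 in 30 of 46 at 72h. Isg15, Mx2, Ifi27l2a and Rtp4 were lower at both time points, though Rtp4 did not pass at 24h without Kaede-red 24h replicates 3 and 4. Scaling to total counts, Rn45s included, called all 46 members higher for the Kaede-red 24h libraries. For the Kaede-red 72h libraries it called 44 higher, and none was lower at either time. That scaling also moved the median of all genes, by 2.33 and 2.04 on the log2 scale in the same order. How many of all genes passed under it is not reported here, so the counts of 46 and 44 do not show whether members stood out. With the Rn45s covariate, 7 members passed at 24h, all lower, and 2 at 72h, both lower, when 1.94% and 1.55% of all genes still passed. The 11 members higher at 72h then had log2 fold changes of 0.17 to 0.50, while Oas3 and Dtx3l, higher over both times, had -0.08 and -0.14 over both times. The log2 Rn45s ratio itself did not overlap between colours. At 24h it was 2.68 to 3.82 in Kaede-green and 0.97 to 2.49 in Kaede-red libraries. At 72h it was 1.92 to 3.34 and 0.34 to 1.49. A fit with this covariate therefore cannot cleanly separate the ratio from colour.

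**Figure D1:**
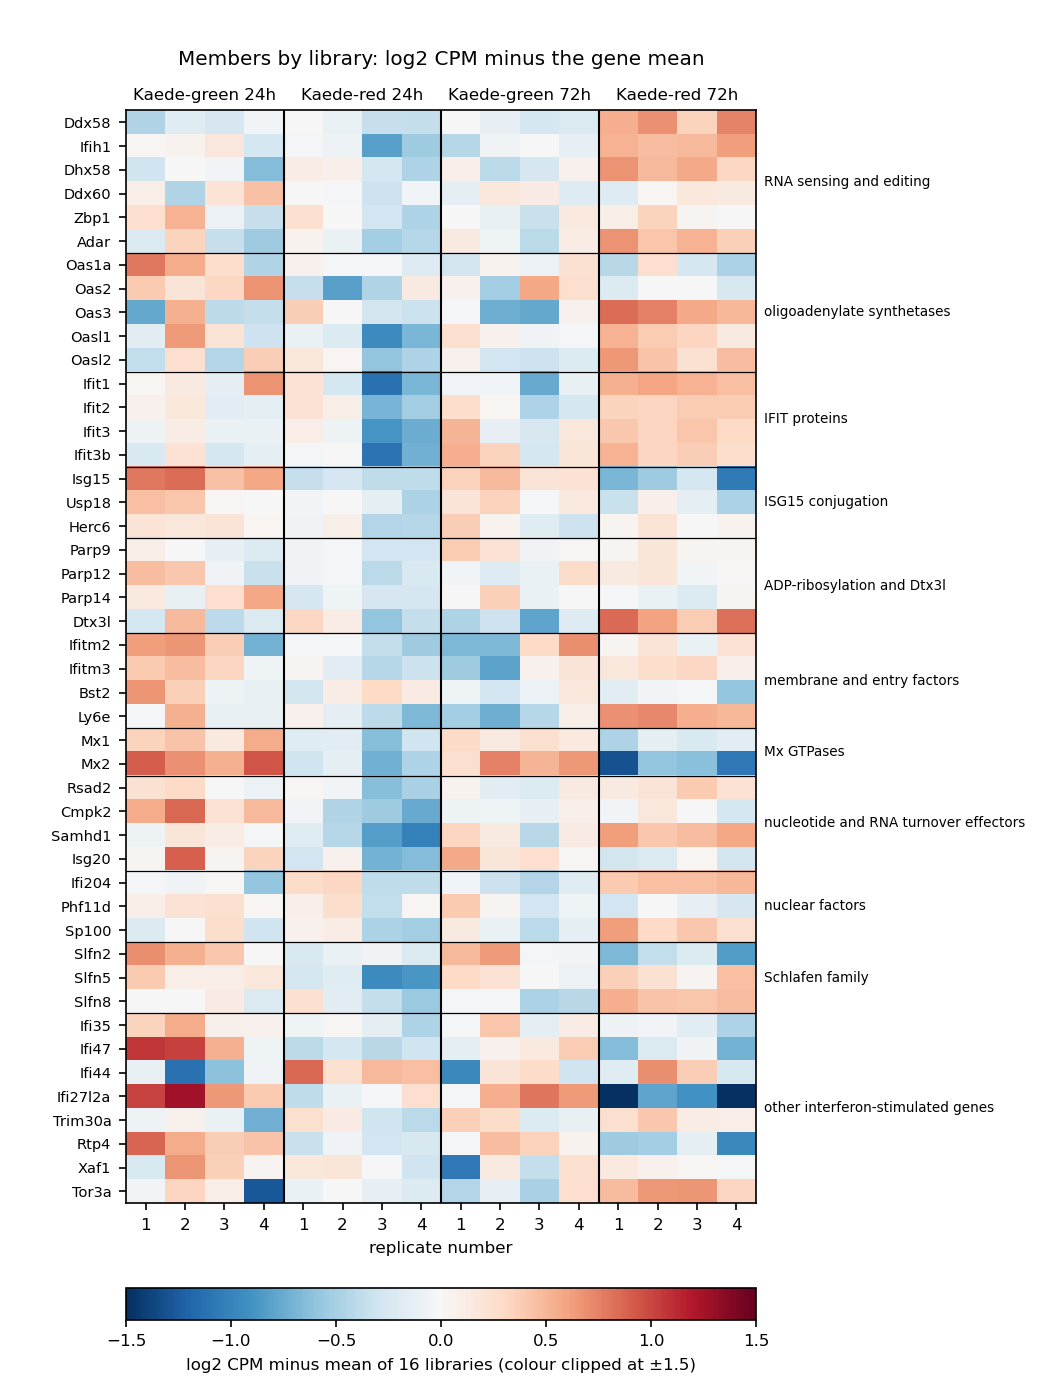
Log2 CPM of each of the 46 members (by role, top to bottom) in each of the 16 libraries (left to right by group and replicate number), less the gene's mean over the 16 libraries; red is above the mean and blue below. Kaede-red 24h replicates 3 and 4 are blue across most genes, and Kaede-red 72h is red for Ddx58, Ifih1 and Dhx58 and blue for Isg15, Mx2, Ifi27l2a and Rtp4.

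**Figure D2:**
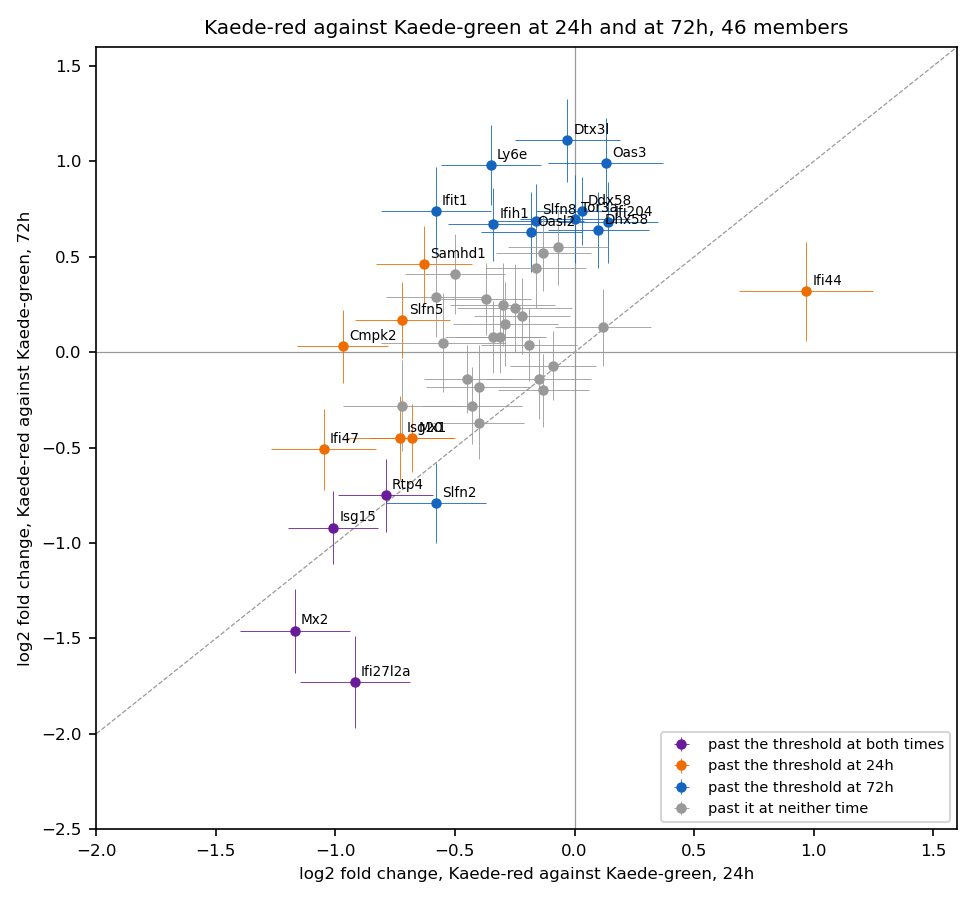
Log2 fold change of Kaede-red against Kaede-green cells at 24h (x axis) and 72h (y axis) for the 46 members, with bars of 1 standard error; colours give the time at which the member passed the threshold and the dashed line marks equal change. Most points lie above the dashed line, and Isg15, Mx2, Ifi27l2a and Rtp4 lie low on both axes.

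The RefSeq promoter table (GRCm38.p6) held a window for 33 of the 46 members, from 250 bases before the start to 50 after. The ISRE core, searched as GAAA, any 2 bases and GAAA on both strands, was found in 18 of 41 member windows (43.9%), those of 16 genes, against 3.44% of all 32851 windows. The longer form that adds CT at the end, which overlaps the core, was in 29.3% of member windows and 0.271% of all. The site TTC, any 3 bases and GAA, known as the gamma-activated site, was in 19.5% and 8.3%. Of the 16 genes with an ISRE core, 5 were higher and 1 lower at 72h. Of the 17 with a window and no core, 2 were higher and 1 lower. The promoters below belong to the 5 members with the smallest p at 72h that had a window. They run from 200 bases before the start to 20 after, on the gene's strand, and capitals mark ISRE cores.
Dtx3l: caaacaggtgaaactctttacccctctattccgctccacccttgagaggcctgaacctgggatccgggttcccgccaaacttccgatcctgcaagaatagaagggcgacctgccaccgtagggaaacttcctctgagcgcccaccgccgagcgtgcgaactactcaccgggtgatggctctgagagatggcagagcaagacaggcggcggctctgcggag
Isg15: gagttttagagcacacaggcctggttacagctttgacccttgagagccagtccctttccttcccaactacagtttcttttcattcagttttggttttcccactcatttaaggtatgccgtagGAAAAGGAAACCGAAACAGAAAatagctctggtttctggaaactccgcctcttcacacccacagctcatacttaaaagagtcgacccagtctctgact
Oas3: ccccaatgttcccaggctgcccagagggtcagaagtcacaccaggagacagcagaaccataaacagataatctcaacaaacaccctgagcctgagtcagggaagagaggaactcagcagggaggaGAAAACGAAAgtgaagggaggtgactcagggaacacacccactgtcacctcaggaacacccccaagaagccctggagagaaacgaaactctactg
Ddx58: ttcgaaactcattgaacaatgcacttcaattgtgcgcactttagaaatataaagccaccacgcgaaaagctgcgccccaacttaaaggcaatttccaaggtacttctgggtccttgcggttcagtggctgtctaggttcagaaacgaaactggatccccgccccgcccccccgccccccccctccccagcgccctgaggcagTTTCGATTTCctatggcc
Slfn2: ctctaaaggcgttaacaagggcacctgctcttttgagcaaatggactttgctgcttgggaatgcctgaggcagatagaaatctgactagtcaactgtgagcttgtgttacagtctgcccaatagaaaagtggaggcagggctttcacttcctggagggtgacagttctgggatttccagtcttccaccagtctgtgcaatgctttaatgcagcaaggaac
Dtx3l lies at chr16:35939008-35939227 on the minus strand, Isg15 at chr4:156200799-156201018 (minus), Oas3 at chr5:120777640-120777859 (minus), Ddx58 at chr4:40239806-40240025 (minus) and Slfn2 at chr11:83064912-83065131 (plus), all GRCm38.p6. Isg15 held 3 overlapping cores and was lower in Kaede-red cells, while Oas3 and Ddx58 held 1 each and were higher. The windows of Dtx3l, higher at 72h, and Slfn2, lower at 72h, held none.

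Of 6 members that sense or edit RNA, 3 were higher in Kaede-red cells at 72h. Ddx58 (RIG-I), Ifih1 (MDA5) and Dhx58 (LGP2), the helicases that detect viral RNA, were higher, with log2 fold changes of 0.74 ± 0.18 (SE, adjusted p = 0.00424), 0.67 ± 0.19 (adjusted p = 0.0136) and 0.64 ± 0.20 (adjusted p = 0.0258). Ddx58 read 20.6, 25, 23.7 and 27.4 CPM in Kaede-green 24h, 28.5, 26.4, 22.1 and 22 in Kaede-red 24h, 28.5, 26, 23.6 and 24.5 in Kaede-green 72h, and 41.5, 45.8, 35.8 and 47.2 in Kaede-red 72h. All Kaede-red 72h libraries lay above all other libraries. None of the 3 sensors passed at 24h, with log2 fold changes of 0.03, -0.34 and 0.10. Ifih1 read 45.2, 45.9, 49.9 and 37.2 CPM in Kaede-green 24h, 43.6, 42, 25 and 30.6 in Kaede-red 24h, 32.9, 43, 44 and 40.6 in Kaede-green 72h, and 63.7, 61.1, 62.5 and 68.3 in Kaede-red 72h. Its Kaede-red 72h libraries lay above all others. Zbp1, a Z-nucleic acid sensor and the most abundant of this role, read 73, 88.1, 57.3 and 47.8 CPM in Kaede-green 24h, 72.6, 61.4, 50.1 and 44.3 in Kaede-red 24h, 61.4, 56.8, 48.4 and 67.4 in Kaede-green 72h, and 65.2, 77.2, 63.1 and 61.1 in Kaede-red 72h. Its groups overlapped, and Zbp1, the helicase Ddx60 and the RNA editing enzyme Adar (0.55 ± 0.20 at 72h, adjusted p = 0.0625) did not pass between colours.

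Oligoadenylate synthetases make the messenger that activates RNase L. Of 5 members, Oas3 and the related Oasl2 were higher in Kaede-red cells at 72h. Oas3 read 23.4, 57.8, 30.3 and 31.1 CPM in Kaede-green 24h, 51.6, 39.9, 33 and 32 in Kaede-red 24h, 39.5, 24.1, 23.4 and 41.9 in Kaede-green 72h, and 72, 67.3, 59.7 and 56.7 in Kaede-red 72h. Kaede-red 72h did not overlap Kaede-green 72h, whereas the 24h groups overlapped. Oas3 had a log2 fold change of 0.99 ± 0.24 at 72h (adjusted p = 0.00317), against 0.13 ± 0.24 at 24h. Oas2, with 6.45 to 18.4 CPM, was lower over both times by -0.50 ± 0.17 (adjusted p = 0.0364). Oas1a read 125, 107, 86.4 and 52.8 CPM in Kaede-green 24h, 75.3, 71.3, 71.5 and 63.5 in Kaede-red 24h, 59.6, 74.8, 67.9 and 85.1 in Kaede-green 72h, and 54.1, 86.2, 60.6 and 51.9 in Kaede-red 72h. Its groups overlapped and it passed in no comparison; 40.9% of its 100-base stretches also occur in Oas1g, so its counts may be split.

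The IFIT proteins bind foreign 5′ ends of RNA. Of 4 members, Ifit1 was higher at 72h. Ifit1 read 51.3, 55.3, 45.6 and 80.2 CPM in Kaede-green 24h, 58.2, 41.7, 23 and 31.1 in Kaede-red 24h, 48.6, 48.9, 29.7 and 46.8 in Kaede-green 72h, and 73, 75.7, 72.4 and 69 in Kaede-red 72h. Kaede-red 72h lay above every Kaede-green 72h library, and the 24h groups overlapped. The difference was 0.74 ± 0.23 at 72h (adjusted p = 0.0236), while at 24h it was -0.58 ± 0.23 (adjusted p = 0.132). Ifit3, the most abundant of the family, read 195, 223, 192 and 193 CPM in Kaede-green 24h, 220, 196, 111 and 122 in Kaede-red 24h, 295, 189, 174 and 230 in Kaede-green 72h, and 273, 258, 273 and 252 in Kaede-red 72h. Its colours overlapped at both times and it did not pass between them, nor did Ifit2 (0.44 ± 0.21 at 72h) and Ifit3b (0.15 ± 0.22). Ifit3 and Ifit3b share 31.7% and 27.4% of their 100-base stretches with each other.

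Isg15, the ubiquitin-like protein that is attached to other proteins, went the other way. Isg15 read 225, 234, 177 and 195 CPM in Kaede-green 24h, 102, 110, 100 and 100 in Kaede-red 24h, 166, 183, 149 and 152 in Kaede-green 72h, and 81.3, 90.5, 109 and 62.6 in Kaede-red 72h. At both times every Kaede-red library lay below every Kaede-green library. The log2 fold change was -1.01 ± 0.19 at 24h (adjusted p = 0.000654). It was -0.92 ± 0.19 at 72h (adjusted p = 0.00066) and -0.97 ± 0.13 over both times (adjusted p = 1.91e-06). Usp18, which removes ISG15, was lower over both times by -0.38 ± 0.13 (adjusted p = 0.0394) with group means of 65.5 ± 11.3, 49.6 ± 6.97, 62.3 ± 6.39 and 48.2 ± 8.32 CPM (SD, n = 4) in the order of groups above. Herc6, the ISG15 ligase of mice, did not pass (-0.13 ± 0.14 over both times).

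Among the ADP-ribosylation genes, only the ubiquitin ligase Dtx3l passed between colours. Dtx3l read 37.4, 62.7, 34.1 and 38.4 CPM in Kaede-green 24h, 55.6, 48.4, 29.8 and 34.9 in Kaede-red 24h, 32.5, 36, 25.8 and 39 in Kaede-green 72h, and 81, 67.8, 58.2 and 79.4 in Kaede-red 72h. The colours overlapped at 24h and not at 72h. Dtx3l had a log2 fold change of 1.11 ± 0.22 at 72h (adjusted p = 0.000541), against -0.03 ± 0.22 at 24h. No other member rose more at 72h. Parp14 had the highest mean CPM of these genes, whereas per kb of exon Parp12 was higher (10.9 against 9.16 CPM). Parp14 read 93.1, 78.2, 100 and 126 CPM in Kaede-green 24h, 70.9, 80, 70.8 and 70.5 in Kaede-red 24h, 83.7, 107, 78.8 and 83.5 in Kaede-green 72h, and 82.3, 78.7, 72.6 and 86.6 in Kaede-red 72h. Its groups overlapped and it did not pass, nor did Parp9 and Parp12 (-0.07 ± 0.18 and 0.08 ± 0.19 at 72h).

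Of the membrane and entry factors, Ly6e, a surface protein that restricts viral entry, was higher at 72h. Ly6e read 112, 165, 106 and 106 CPM in Kaede-green 24h, 119, 104, 87.1 and 71.9 in Kaede-red 24h, 80, 69, 84.6 and 122 in Kaede-green 72h, and 185, 189, 167 and 162 in Kaede-red 72h. The groups overlapped at 24h and did not at 72h. On the log2 scale the difference was 0.98 ± 0.21 at 72h (adjusted p = 0.00102) and -0.35 ± 0.21 at 24h. Ifitm3, which blocks fusion in endosomes, read 187, 197, 179 and 137 CPM in Kaede-green 24h, 147, 129, 107 and 114 in Kaede-red 24h, 98.7, 81.8, 150 and 164 in Kaede-green 72h, and 160, 173, 177 and 151 in Kaede-red 72h. Its colours overlapped at both times and it did not pass; its neighbour Ifitm2 and the tethering protein Bst2 did not either.

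The dynamin-like GTPases Mx1 and Mx2 were lower. Mx2 read 23.4, 20.1, 18.1 and 24.1 CPM in Kaede-green 24h, 10, 11.2, 7.44 and 8.98 in Kaede-red 24h, 14.6, 21.1, 17.8 and 19.5 in Kaede-green 72h, and 4.93, 8.14, 8.02 and 5.81 in Kaede-red 72h. The colours did not overlap at either time. The log2 fold change was -1.17 ± 0.23 at 24h (adjusted p = 0.00095), while at 72h it was -1.46 ± 0.22 (adjusted p = 1.81e-05). Mx1 read 54.6, 58.6, 48.4 and 63.8 CPM in Kaede-green 24h, 38.4, 38.8, 27.9 and 35.2 in Kaede-red 24h, 53.4, 47.6, 51.6 and 48.4 in Kaede-green 72h, and 31.3, 39.4, 37.2 and 38.8 in Kaede-red 72h. Its colours did not overlap at either time, and it was lower at 24h by -0.68 ± 0.18 (adjusted p = 0.0154) and had -0.45 ± 0.18 at 72h (adjusted p = 0.0757). GENCODE gives Mx2 the type polymorphic pseudogene in this strain's reference.

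Of 4 nucleotide and RNA turnover effectors, Cmpk2, Samhd1 and Isg20 were lower at 24h and 0 passed at 72h. Cmpk2, a mitochondrial nucleotide kinase, read 74.2, 91.4, 58.6 and 70.3 CPM in Kaede-green 24h, 49, 36.7, 34.7 and 29.8 in Kaede-red 24h, 47.5, 47.9, 46 and 53.1 in Kaede-green 72h, and 49.2, 56.7, 50.1 and 42 in Kaede-red 72h. The colours were apart at 24h and overlapped at 72h. Cmpk2 had a log2 fold change of -0.97 ± 0.19 at 24h (adjusted p = 0.00122), against 0.03 ± 0.19 at 72h. Samhd1, which degrades deoxynucleotides, read 133, 159, 151 and 138 CPM in Kaede-green 24h, 123, 104, 79.1 and 69.3 in Kaede-red 24h, 176, 154, 106 and 153 in Kaede-green 72h, and 217, 186, 194 and 210 in Kaede-red 72h. All Kaede-red libraries were below Kaede-green at 24h and above at 72h. Samhd1 was lower at 24h by -0.63 ± 0.20 (adjusted p = 0.049), a call that held in 3 of 16 fits with a library left out, and had 0.46 ± 0.20 at 72h (adjusted p = 0.114). The exonuclease Isg20 was lower at 24h by -0.73 ± 0.22 (adjusted p = 0.0396). Rsad2 (viperin), which makes a chain-terminating nucleotide, read 212, 222, 179 and 170 CPM in Kaede-green 24h, 184, 176, 116 and 129 in Kaede-red 24h, 188, 161, 156 and 198 in Kaede-green 72h, and 198, 206, 237 and 211 in Kaede-red 72h. Its colours overlapped and it did not pass.

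Ifi204, a nuclear DNA sensor of the p200 family, read 231, 226, 237 and 157 CPM in Kaede-green 24h, 283, 292, 181 and 181 in Kaede-red 24h, 230, 189, 173 and 207 in Kaede-green 72h, and 308, 321, 321 and 333 in Kaede-red 72h. Only the 72h groups were apart, with a log2 fold change of 0.68 ± 0.21 (adjusted p = 0.0187); 16.8% of its 100-base stretches occur in Ifi211. The Schlafen genes split. Slfn2, whose loss breaks quiescence in T cells and monocytes, read 432, 386, 353 and 267 CPM in Kaede-green 24h, 228, 248, 258 and 230 in Kaede-red 24h, 374, 416, 261 and 260 in Kaede-green 72h, and 167, 206, 233 and 149 in Kaede-red 72h. The colours did not overlap at either time, and the log2 fold change was -0.58 ± 0.21 at 24h (adjusted p = 0.0972), while at 72h it was -0.79 ± 0.21 (adjusted p = 0.00824). Slfn8 was higher at 72h by 0.69 ± 0.19 (adjusted p = 0.0105), and Slfn5 was lower at 24h by -0.72 ± 0.20 (adjusted p = 0.0204).

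Among the remaining members, Ifi27l2a, a small interferon-induced protein, had the largest fall at 72h. Ifi27l2a read 225, 265, 173 and 146 CPM in Kaede-green 24h, 84.6, 103, 109 and 132 in Kaede-red 24h, 109, 162, 193 and 172 in Kaede-green 72h, and 36.2, 63.8, 58.8 and 33.4 in Kaede-red 72h. The colours did not overlap at either time. The log2 fold change was -0.92 ± 0.23 at 24h (adjusted p = 0.0114), while at 72h it was -1.73 ± 0.24 (adjusted p = 4.04e-06). Ifi47, an interferon-induced GTPase, read 142, 138, 97.3 and 64.6 CPM in Kaede-green 24h, 50.6, 56.4, 50.4 and 54.9 in Kaede-red 24h, 60.7, 70.8, 74.9 and 87.7 in Kaede-green 72h, and 43, 57.9, 65.2 and 41.1 in Kaede-red 72h. The colours were apart at 24h, where Ifi47 was lower by -1.05 ± 0.22 (adjusted p = 0.0018), and overlapped at 72h, where it had -0.51 ± 0.21. Ifi44 was the member higher at 24h and read 13.4, 6.55, 9.43 and 13.9 CPM in Kaede-green 24h, 26.4, 17.1, 20.3 and 19.8 in Kaede-red 24h, 7.31, 16.5, 17.5 and 11.7 in Kaede-green 72h, and 12.7, 23.7, 18.8 and 12.2 in Kaede-red 72h. The 24h groups did not overlap, with a log2 fold change of 0.97 ± 0.28 (adjusted p = 0.0283), and Ifi44 had 0.32 ± 0.26 at 72h. Rtp4, a chaperone of membrane receptors, was lower at 24h by -0.79 ± 0.20 (adjusted p = 0.00902), and at 72h the fall was -0.75 ± 0.19 (adjusted p = 0.0065). The torsin ATPase Tor3a was higher at 72h by 0.70 ± 0.23 (adjusted p = 0.0318).

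**Figure D3:**
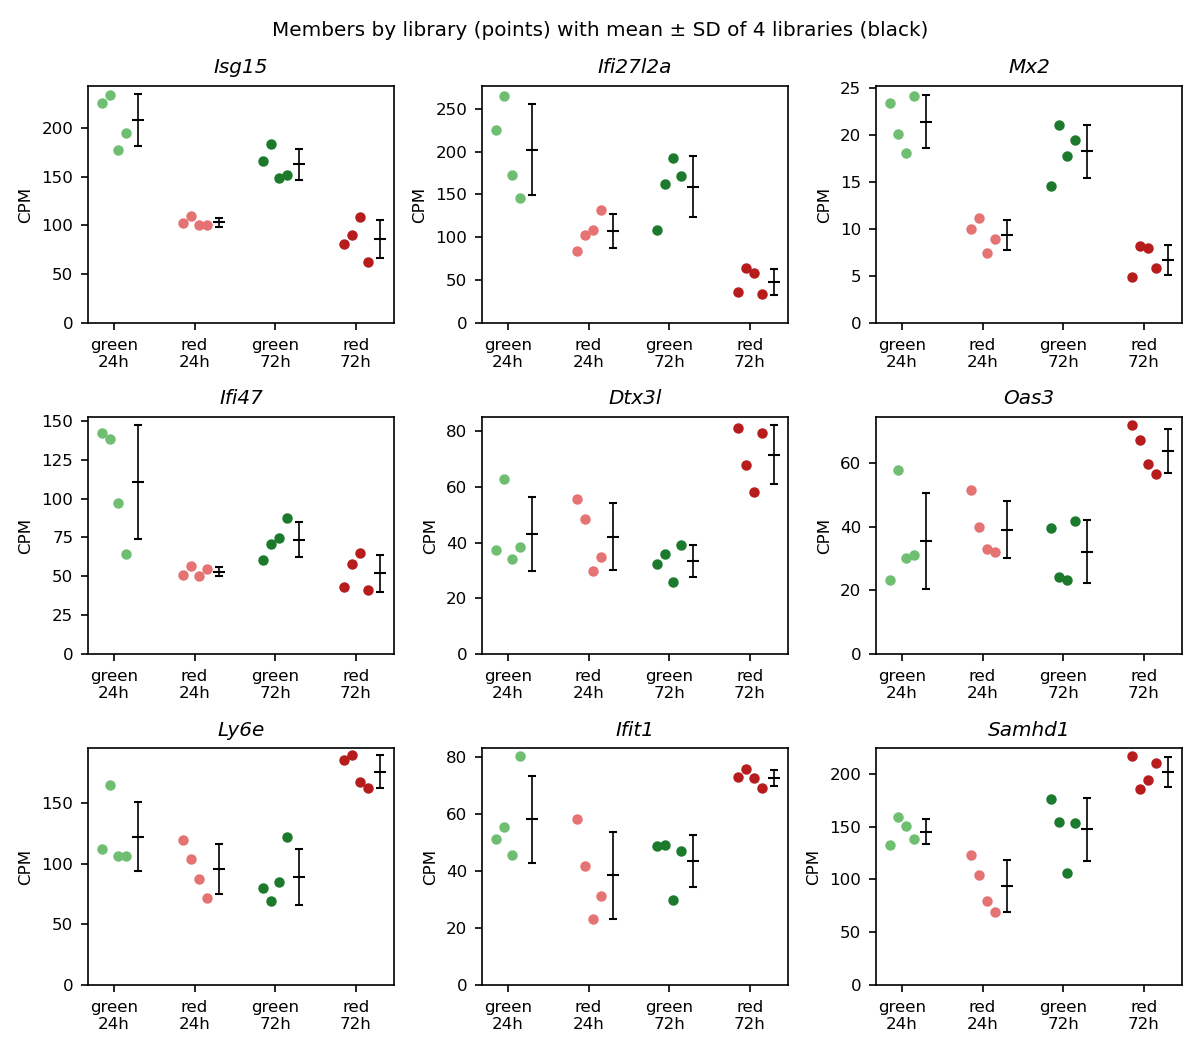
CPM of 9 members in every library (points, 4 per group) with the group mean and SD in black; each panel starts at 0. Isg15, Ifi27l2a and Mx2 are lower in both Kaede-red groups, while Dtx3l, Oas3, Ly6e, Ifit1 and Samhd1 are highest in Kaede-red 72h.

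From 24h to 72h in Kaede-red cells, 14 members rose and 1 fell, against 4.92% and 3.76% of all genes (8.68% either way). The risers were Ddx58, Ifih1, Dhx58, Adar, Oas3, Oasl1, Ifit1, Ifit3, Ifit3b, Dtx3l, Ly6e, Samhd1, Slfn5 and Slfn8. Samhd1 had the largest rise, 1.10 ± 0.20 (adjusted p = 0.00121), followed by Ifit1 with 0.91 ± 0.23 (adjusted p = 0.0115) and Ly6e with 0.88 ± 0.21 (adjusted p = 0.00776). Ifi27l2a fell by -1.16 ± 0.23 (adjusted p = 0.00278). Without Kaede-red 24h replicates 3 and 4, which stood apart, 0 of 46 members and 0.0867% of all genes passed, and without replicate 3 or replicate 4 alone, 5 members passed. Leaving out both also left 2 libraries in that group. The 15 members kept their direction, with Samhd1 at 0.80 (adjusted p = 0.179), Ly6e at 0.62 (adjusted p = 0.345), Ifit1 at 0.50 (adjusted p = 0.492) and Ifi27l2a at -1 (adjusted p = 0.147). Without Kaede-red 72h replicate 1 or replicate 4, 7 and 9 passed. With total-count scaling 0 passed, and with the Rn45s ratio as a covariate 4 did, 3 of them higher, against 2.33% of all genes. The shares of all genes passing without single libraries or with total-count scaling are not reported here. Those counts therefore do not show whether members lost more calls than other genes. Marker genes also moved between these groups. Of 6 monocyte markers 3 were higher at 72h, Chil3 (1.05 ± 0.33, adjusted p = 0.0457) and Vcan (1.35 ± 0.25, adjusted p = 0.00132) among them. Of 9 markers of the sort and of macrophages, Ptprc, Itgam and Csf1r were higher by 0.67, 0.98 and 1.11, as was the neutrophil marker Csf3r, while the fibroblast marker Col3a1 was lower by -1.12. Their part in the members' changes was not tested.

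In Kaede-green cells, 0 members and 0 of 9642 genes passed between 24h and 72h. At an unadjusted p below 0.05 there were 4 members and 835 genes, and DESeq2 called 0 members. The median log2 fold change was -0.15 for members and 0.03 for all genes, and the lowest adjusted p of a member was 0.401.

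The red-green difference itself changed with time for Ly6e and Ifit1, against 0.757% of all genes. Both had a change of 1.33 on the log2 scale, with adjusted p = 0.0318 for Ly6e and 0.0482 for Ifit1. The next were Samhd1 with 1.09 ± 0.28 (adjusted p = 0.0606), Ifih1 with 1.00 ± 0.27 (adjusted p = 0.0672) and Cmpk2 with 0.99 ± 0.27 (adjusted p = 0.0672), which did not pass. The median change was 0.51 for members and -0.07 for all genes, with 41 of 46 members above 0. Against these, 0.425% of all genes passed upward and 0.332% downward. Without Kaede-red 24h replicates 3 and 4 the change was 1.09 for Ly6e (adjusted p = 0.328) and 0.93 for Ifit1 (adjusted p = 0.441), so neither passed with 2 libraries in that group. Leaving out single libraries in turn, Ly6e passed in 7 of 16 fits and Ifit1 in 2.

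The comparisons at 24h also moved with those libraries: without Kaede-red 24h replicates 3 and 4, 4 members passed, Isg15, Mx2, Ifi47 and Ifi27l2a, all lower. Without Kaede-green 24h replicate 2 or Kaede-red 24h replicate 3, 7 passed. At 72h, 10 passed without Kaede-green 72h replicate 3, with 5 higher and 5 lower. The shares of all genes passing in these refits are not reported here, so the counts do not show whether members changed more than other genes. Libraries of the compared groups did not overlap for 14 members at 24h (12.5% of all genes) and for 21 at 72h (22.6% of all genes). Between times they did not overlap for 1 member in Kaede-green cells (3% of all genes) and for 23 in Kaede-red cells (20.6%).

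Called members differed in length. At 72h the 5 lower members had a median exonic length of 1.66 kb and the 11 higher members 4.09 kb. Over all genes tested, those lower at 72h had a median of 2.68 kb and those higher 5.03 kb. Spearman's rho between exonic length and log2 fold change across the 46 members, which share libraries and are not replicates, was 0.39 at 24h and 0.42 at 72h, against 0.04 and 0.13 across 9287 genes. With an offset for length and GC content, chosen after seeing the data, 12 members passed at 24h, all lower, and 14 at 72h, 10 higher and 4 lower. The shares of all genes passing with the offset are not reported here, so these counts do not show whether members stood out. Under the offset Ifi44 (0.83, adjusted p = 0.0543) and Ifi27l2a (-0.52, adjusted p = 0.0725) did not pass at 24h. At 72h Isg15 (-0.39, adjusted p = 0.142), Dhx58 (0.46, adjusted p = 0.0988), Oasl2 (0.44, adjusted p = 0.151) and Tor3a (0.55, adjusted p = 0.0656) did not pass, all with the direction they had without the offset.

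**Figure D4:**
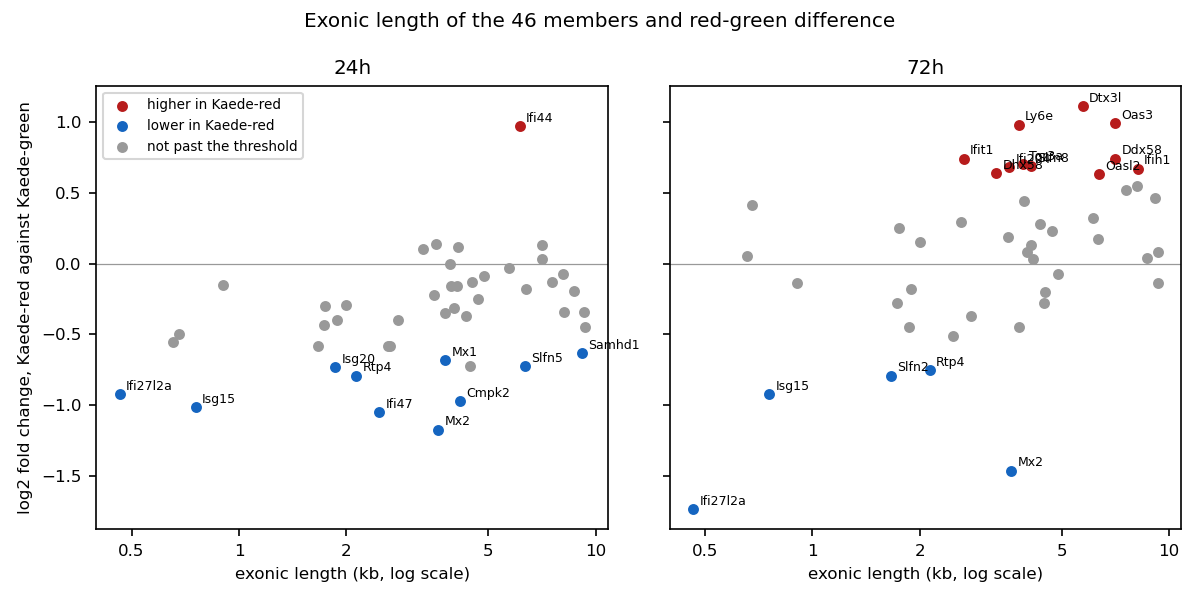
Log2 fold change of Kaede-red against Kaede-green cells (y axis) by exonic length in kb (x axis, log scale) for the 46 members at 24h (left) and 72h (right); red points passed as higher, blue as lower. The short genes Ifi27l2a and Isg15 lie low in both panels. Ifitm2, Ifitm3 and Bst2, also short (0.655, 0.678 and 0.903 kb), had 0.05, 0.41 and -0.14 at 72h.

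Per kb of exon, Ifi27l2a (279 CPM per kb), Ifitm3 (217), Isg15 (185) and Slfn2 (168) had the highest mean levels over the 16 libraries, and Oas2 (2.67) and Ifi44 (2.52) the lowest. Within groups, the median correlation of log2 CPM over 1035 pairs of members was 0.31, against 0.01 for all pairs of tested genes, over 16 libraries. Ifit3, Zbp1, Ifit3b and Trim30a had the highest median correlation with the other members (0.57, 0.56, 0.54 and 0.54), and Oas2, Parp14, Ifi44 and Ddx60 were negative (-0.29, -0.22, -0.19 and -0.19). Most members correlated negatively with the Rn45s ratio within groups. The same share over all genes is not reported here, so this is not shown to be particular to members. Ly6e had the most negative correlation (-0.81), followed by Rsad2 (-0.74), Dtx3l (-0.73) and Ifitm2 (-0.71). Among the members lower at both times, Rtp4, Isg15 and Ifi27l2a had 0.33, 0.23 and 0.1, and Mx2 had -0.11. Beyond the fits with that ratio as a covariate, its part in the change of Ly6e was not tested.

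Neighbouring members did not always move together. Parp9 and Dtx3l are divergent genes that overlap at their 5′ ends, with starts 0.681 kb apart, and encode partners in a complex. The log2 ratio of Parp9 to Dtx3l CPM was -0.04, -0.88, -0.13 and -0.38 in Kaede-green 24h, -0.76, -0.52, -0.09 and -0.32 in Kaede-red 24h, 0.45, 0.13, 0.35 and -0.18 in Kaede-green 72h, and -1.20, -0.81, -0.74 and -1.18 in Kaede-red 72h. The 72h groups did not overlap, with a difference of -1.17 (two-sided exact permutation test, p = 0.0286, the smallest that 4 against 4 libraries allow). It did not pass after adjustment over 10 tests (adjusted p = 0.0572). Strand settings of the counting were not given, so overlapping exons may be split. Rsad2 and Cmpk2 lie head to head, with starts 12.8 kb apart. The log2 ratio of Rsad2 to Cmpk2 had group means of 1.42 ± 0.17, 2.00 ± 0.23, 1.84 ± 0.11 and 2.10 ± 0.21 (SD, n = 4, in the order of groups above). The red-green difference over both times was 0.42 (p = 0.00163 by a two-sided exact permutation that kept the times apart, adjusted p = 0.0163).

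**Figure D5:**
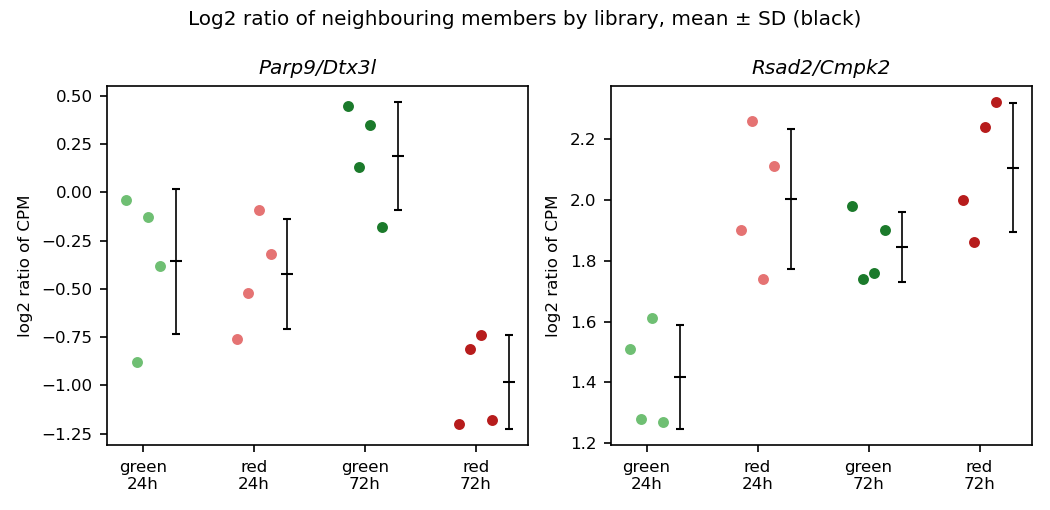
Log2 ratio of CPM of neighbouring members in every library (points, 4 per group) with mean and SD in black: Parp9 to Dtx3l (left) and Rsad2 to Cmpk2 (right). The Parp9 to Dtx3l ratio is lowest in Kaede-red 72h, and the Rsad2 to Cmpk2 ratio is lowest in Kaede-green 24h.

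The pathway around the members was read from fixed lists. Of 9 interferon genes, 0 passed the filter: Ifnb1 had at most 4 counts in a library and Ifng at most 3, so production by these cells was not detectable at this depth. Ifnar2, a subunit of the type I receptor, was higher at 72h by 0.63 ± 0.20 (adjusted p = 0.0303), and Ifnar1 was not (-0.04 ± 0.21). Of 6 signal transducers, Jak1 (0.79 ± 0.20) and Tyk2 (1.26 ± 0.32) were among those higher at 72h. Of 6 interferon regulatory factors, 0 passed between colours; Irf7 had -0.39 ± 0.21 at 24h and 0.30 ± 0.21 at 72h, and Irf9 had 0.25 ± 0.23 and 0.12 ± 0.22. Of 10 sensors and adaptors, Tlr7, Tlr9 and Tmem173 (STING) were higher at 72h by 1.22 ± 0.24, 1.61 ± 0.29 and 1.08 ± 0.29. Of 7 negative regulators, Socs1 was lower at 24h by -1.02 ± 0.32 and Ptpn6 was higher at 72h by 0.74 ± 0.21. Of 15 genes that lean to interferon gamma, Gbp2 and Cxcl10 were lower at 24h by -0.75 ± 0.23 and -1.02 ± 0.22, and Irgm1 and Cxcl9 were higher at 72h by 0.63 ± 0.19 and 0.85 ± 0.25.

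Cell type markers moved with the colours too. In bulk RNA, fewer cells of a type and less RNA per cell cannot be told apart. All 9 markers of the sort and of macrophages were detected. Among them, Adgre1, C1qa and C1qb were higher in Kaede-red cells at both times, by 2.18 to 3.26 on the log2 scale for C1qa, and Lyz2 was lower at 24h. Among 6 monocyte markers, Plac8, Chil3 and Vcan were lower at 24h by -1.62 to -2.20, and Plac8 was lower at 72h by -1.90. At 72h Chil3, Vcan, Ly6c2 and Ccr2 did not pass, with -0.39, 0.36, 0.45 and 0.17. The summed monocyte markers were 986 to 1610 CPM in Kaede-green 24h, 483 to 598 in Kaede-red 24h, 715 to 1120 in Kaede-green 72h and 488 to 749 in Kaede-red 72h, of which Plac8 alone averaged 848, 223, 543 and 146 CPM. Fibroblast markers summed to 40.3 to 52.8, 18.9 to 35.9, 43 to 48.6 and 11.2 to 18.3 CPM in the same order, and neutrophil markers to at most 23. Plasmacytoid dendritic cell markers summed to at most 13 CPM, with Siglech, Ccr9 and Cox6a2 at 0 in both Kaede-green groups. B cell and epithelial markers summed to at most 3.68 CPM, T and NK cell markers to at most 7.24 and conventional dendritic cell markers to at most 5.09. Endothelial markers summed to 9.77 to 19 CPM in Kaede-green libraries and 18.1 to 36.8 in Kaede-red libraries. The part of these differences in the members' changes was not tested.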

How the data were processed

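The deposited values were raw counts per gene from 16 bulk RNA-seq libraries. The authors trimmed 3 nucleotides of R1, removed adaptors and poor bases with Trim Galore, checked quality with FastQC, aligned reads to mm10 with HISAT2 and counted genes with featureCounts; tool versions, strand settings and treatment of reads with several matches are not given in the sources used here. Libraries were SMARTer stranded total RNA pico input libraries. In all 16 columns the combined table and the single-library files held the same counts (0 genes differed). Groups came from the labels.

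Counts were filtered with filterByExpr (minimum count 10, minimum total 15) and scaled by TMM, and 1 model with a mean per group was fitted with edgeR 4.0.16 (quasi-likelihood test, R 4.3.3), with Benjamini-Hochberg adjustment over 9642 genes and a threshold of 0.05. Standard errors were derived from the F statistic. The common dispersion was 0.0702. CPM are on TMM-scaled library sizes, with 2 as prior count for log2 CPM. The procedure was tested on simulated data. Ratios were compared by exact permutation tests. Gene positions came from GENCODE M21 (GRCm38) and promoters from RefSeq. Alternatives were DESeq2 1.42.0, other scalings and filters, covariates and single libraries left out. The 24 replicate pairs differed by more than sampling noise. Members and lists were chosen with earlier results of these data known. Values of every library are given for the called members with the 3 largest rises and falls in each comparison and the 5 with the smallest p for the change between times. They are also given for the member with the highest mean log2 CPM of each role. Ddx58 and Slfn2 were added for their promoters. The promoter rule tied between comparisons, and 72h was used. Some genes of the fixed lists are not reported here.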

Additional observations from a re-analysis of the deposited data

Results flagged for a closer look

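Among 84 combinations of 21 members and a group, 5 held a library far from the other 3, where chance gives about 1 in 20. Ifi204 in Kaede-green 24h replicate 4 read 157 CPM, against 226 to 237 in the others. Ifit1 in Kaede-green 72h replicate 3 read 29.7 CPM, against 46.8 to 48.9. Ifit3 in Kaede-green 24h replicate 2 read 223 CPM, against 192 to 195, and Ly6e in the same library read 165 CPM, against 106 to 112. Parp14 in Kaede-red 24h replicate 2 read 80 CPM, against 70.5 to 70.9. The red-green difference of Ifit1 changed between 24h and 72h by 1.33 on the log2 scale (edgeR, adjusted p = 0.0482), and that of Ly6e by 1.33 (adjusted p = 0.0318). For Ifit1 all 4 Kaede-red 72h libraries lay above the Kaede-green 72h libraries, and without Kaede-red 24h replicates 3 and 4 the change was 0.93 for Ifit1 (adjusted p = 0.441) and 1.09 for Ly6e (adjusted p = 0.328).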

How the results depend on the processing

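Without Rn45s, and with only the groups compared, no count of members past the threshold moved by over 1.5 times; the latter could not be refitted for both times and the change between times. The counts over both times, at 24h, at 72h and from 24h to 72h in Kaede-red cells were 46, 46, 44 and 0 with library-size scaling and 3, 7, 2 and 4 with the Rn45s ratio as a covariate, against 16, 11, 16 and 15. At 24h no filter gave 7 and leaving out Kaede-red 24h replicates 3 and 4 gave 4, and the latter gave 0 from 24h to 72h in Kaede-red cells. The change between times, called for 2 members, gave 8 with DESeq2, 1 with RLE normalization, 0 with library-size scaling, 4 without a filter, 6 with at least 10 counts in every library, 6 with the Rn45s covariate, 7 with the length and GC offset and 0 without both Kaede-red libraries. Leaving out single libraries gave 12 to 16 over both times, 7 to 14 at 24h, 10 to 18 at 72h, 0 to 0 in Kaede-green cells, 5 to 18 in Kaede-red cells and 0 to 7 for the change between times. The change between times had 0 members without Kaede-green 24h replicate 2 or 3, Kaede-red 24h replicate 3 or 4, Kaede-green 72h replicates 1, 2 or 3, or Kaede-red 72h replicate 1 or 2, and 1 without Kaede-green 24h replicate 1, Kaede-red 24h replicate 2, or Kaede-red 72h replicate 3 or 4. With the replicate block, the counts were 16, 11, 17, 0, 18 and 4. Without the share of all genes beside them, these counts show how many members passed and not whether members stood out. Same-numbered libraries correlated by -0.02 to 0.15, and 2 of 8 Kaede-green libraries correlated best with their own number, so the numbers were not taken as pairs. Signs reversed with the Rn45s covariate for Oas3 (-0.08) and Dtx3l (-0.14) over both times, in a fit that cannot cleanly separate that ratio from colour. With library-size scaling they reversed over both times for Ifi27l2a (0.70), Mx2 (0.85) and Isg15 (1.15), at 24h for Mx2 (1.19), Ifi47 (1.22) and Isg15 (1.29), and at 72h for Ifi27l2a (0.13), Mx2 (0.50) and Isg15 (1.00). Library-size scaling moved the median of all genes by 2.20 over both times. The cause of the other changes was not tested. The counts of low members limit what can be seen in Kaede-green libraries.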
